A study of Mus musculus with 8 samples.

Results

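The semaphorins, plexins and neuropilins are a family of guidance ligands and their receptors, and their transcripts were followed here in the mouse medial prefrontal cortex after a single fear memory was formed. Members were taken by gene symbol, as every row of the deposited table named Sema3 to Sema7, Plxn A to D, Nrp1 or Nrp2. This gave 31 genes of 22609, namely 20 semaphorins, 9 plexins and 2 neuropilins. All 31 passed the filter on low values and were tested together with all other genes (14704 in all).

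The study asked how the neocortex is remodelled early in the encoding of an episodic memory. Total RNA came from the anterior cingulate part of the medial prefrontal cortex, taken from both hemispheres of B6.SJL mice aged 3 months. All mice spent 3 min in a conditioning chamber. In the contextual fear conditioning group (4 samples) the mice then received 2 foot shocks of 0.8 mA, each lasting 2 s and 30 s apart, before a last 15 s in the chamber. Mice of the context control group (4 samples) were handled in the same way without a shock, and tissue was taken 1 h after training in both groups. No transgene, drug or gene deletion is named for either group, so the shock is the labelled difference between them. The replicates are called biological in the series design text.

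Semaphorins are secreted or membrane-bound proteins that steer growing axons and dendrites, mostly by repulsion. Plexins are their receptors, and a GTPase-activating domain inside the cell lets them switch off small GTPases of the Ras and Rap family and loosen the actin cytoskeleton. The secreted class 3 semaphorins mostly need a neuropilin as the ligand-binding partner of an A-type plexin, whereas the membrane-bound classes bind plexins directly. In the adult cortex the same proteins act on dendritic spines, inhibitory and excitatory synapses, blood vessels and glia.

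Values are gene read counts divided by a factor per sample, called scaled reads below, and they are not corrected for gene length. Between 1992452 and 3565356 gene reads per sample were recovered from them. Neuronal markers were abundant in every sample, with the summed level of 7 markers between 14198 and 18804 in context controls and between 13696 and 19756 after conditioning. In whole tissue, fewer cells of a type and less RNA per cell cannot be told apart. The sources used here name neither the strand setting nor the annotation, so reads of overlapping genes could not be separated.

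The most abundant member was Sema7a, a GPI-anchored semaphorin that binds plexin C1 and integrins. Levels were compared between genes per kb of the longest annotated transcript, as mean ± SD over the 8 samples. Sema7a stood at 134 ± 41.9 scaled reads per kb, followed by the receptor genes Nrp1 (67.3 ± 22.3), Plxna2 (63.9 ± 8.44) and Plxnc1 (62.2 ± 11.0). The secreted ligand Sema3c (52.2 ± 14.6) and the transmembrane ligands Sema6d (50.7 ± 12.2) and Sema4a (49.3 ± 14.3) came next. At the low end were Sema3b (1.36 ± 1.40), Sema3f (3.28 ± 1.62), Sema6c (4.17 ± 1.43), Plxnb3 (4.2 ± 1.59) and Sema3g (4.58 ± 2.12). Of the 30 steps between neighbours in this order, 1 was larger than the SD of the difference over samples, that from Sema7a to Nrp1, and Sema7a was the higher gene in 6 of 8 samples. Longest transcripts need not be the forms used in cortex, so the order depends on that choice of length.

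**Figure D1:**
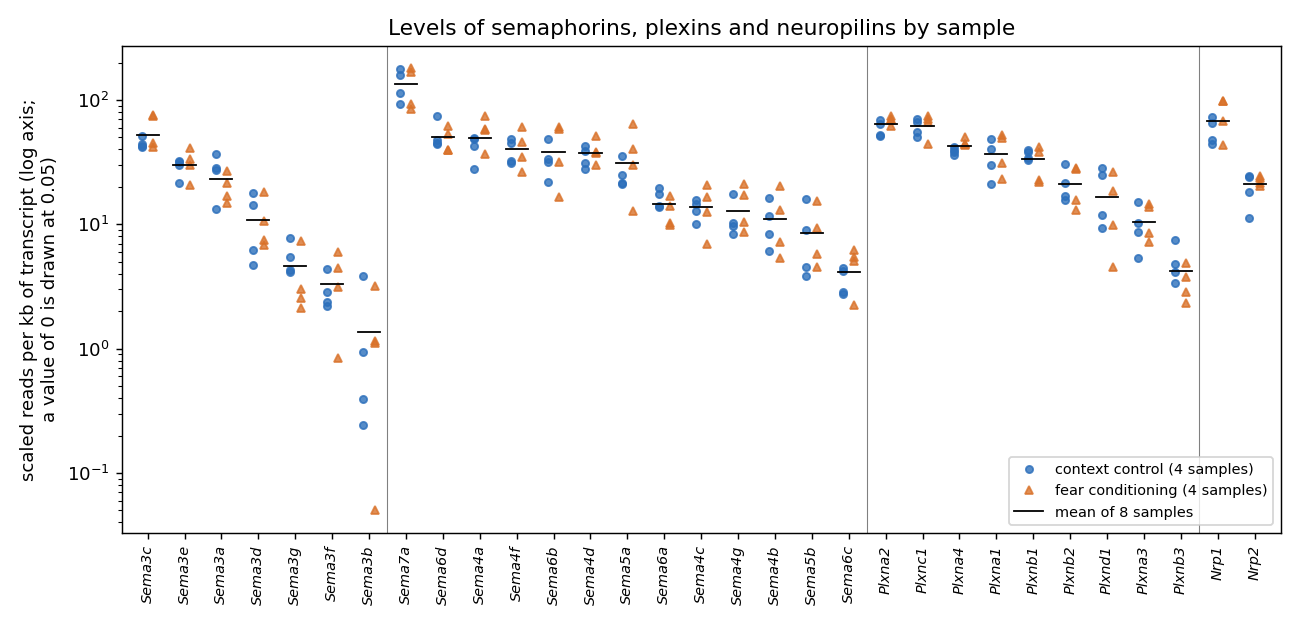
Scaled reads per kb of transcript (log axis) for the 31 genes, grouped into class 3 semaphorins, semaphorins of classes 4 to 7, plexins and neuropilins, with context controls as circles, conditioned samples as triangles and the mean of 8 samples as a line. The symbols of the groups intermingle for nearly every gene, Sema7a lies highest at 134, and the 0 of Sema3b is drawn at the foot of the axis.

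No semaphorin, plexin or neuropilin gene passed the threshold after fear conditioning. In limma, 0 of 31 had an adjusted p under 0.05, and 0 of 31 an unadjusted p under 0.05, against 0% and 2.7% of all tested genes. The unadjusted count of members was not stable, running from 0 to 4 with a sample left out. edgeR and DESeq2 on recovered reads gave 0 of 31 at either level. Over all tested genes limma, edgeR and DESeq2 each called 0, with 397, 385 and 340 genes at an unadjusted p under 0.05. The adjusted p of each member was 0.9998 in limma.

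Of the 31 members, 22 had a log2 change above 0 and 9 below, where 51.8% of all tested genes lay above 0. In counts of genes, higher and lower refer to the sign of this change, a difference of mean log2 values. The median log2 change was 0.094 for the members and 0.0095 for all tested genes. This count rested on single samples, being 15 without context control replicate 3 and 14 without fear conditioning replicate 1, with medians of -0.0081 and -0.029. The 95% confidence interval of a member's log2 change reached between 0.28 and 1.80 to either side, with a median of 0.64. These intervals are not adjusted for the number of genes, so an interval that leaves out 0 does not amount to a call.

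**Figure D2:**
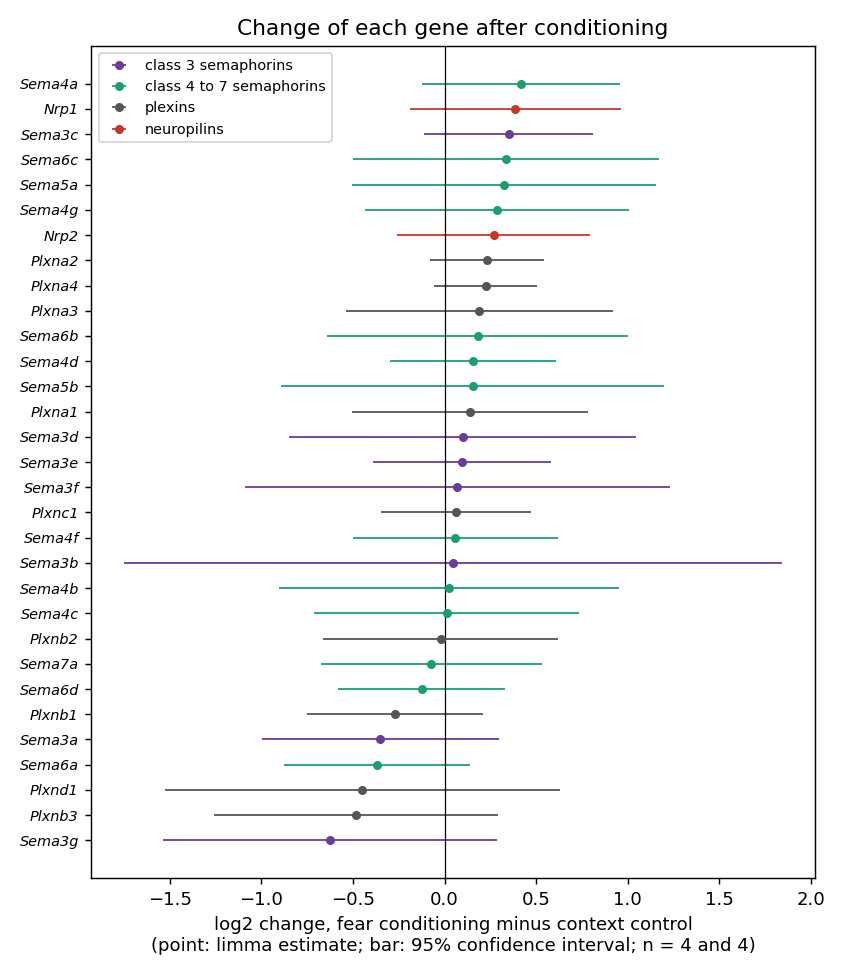
The log2 change of each gene (fear conditioning minus context control) as estimated by limma, with its 95% confidence interval, for 4 samples per group, coloured by type of protein. Every interval spans 0, and the estimates run from -0.63 for Sema3g to 0.42 for Sema4a.

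Among the secreted class 3 ligands, 5 of 7 lay higher and 2 lower after conditioning, with a median log2 change of 0.070. The number higher was 4 in edgeR and 3 in DESeq2, and 1 without context control replicate 1. Sema3c, which can act as an attractant for cortical axons, read 230, 244, 281 and 233 in the controls (replicates 1 to 4) and 249, 229, 419 and 408 after conditioning (replicates 1 to 4, the order used throughout). Only conditioned replicates 3 and 4 exceeded the controls, and the groups overlapped. The log2 change was 0.35 (95% interval -0.11 to 0.81). Between replicates 1 and 2 of the groups it was 0.010, between replicates 3 and 4 it was 0.69, and without fear conditioning replicate 3 it was 0.21.

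Sema3a, the classical repellent of cortical axons and a component of perineuronal nets, had the opposite sign. It read 169, 79.2, 217 and 163 in the controls and 99.4, 87.5, 127 and 160 after conditioning. Control replicate 2 was the lowest sample of all and the other controls lay above every conditioned sample. Its log2 change was -0.35 (-0.999 to 0.30), -0.65 without context control replicate 2 (adjusted p = 0.999 in limma) and -0.17 without context control replicate 3.

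Sema3g, a ligand made mainly by the endothelium of arteries, had the lowest estimate of all members. Its values were 24.9, 18.8, 35.3 and 19.3 in controls and 9.67, 33.2, 13.7 and 11.5 after conditioning, from 7 to 35 reads per sample. Conditioned replicate 2 lay among the controls and the other conditioned samples below them all. The log2 change of -0.63 (-1.54 to 0.29) became -0.99 without that sample (adjusted p = 0.999 in limma).

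Sema3e, which binds plexin D1 without a neuropilin and is known from deep cortical layers, stood at 198 ± 34.3 in controls and 215 ± 58.6 after conditioning (SD, n = 4). Its samples were 148, 222, 207 and 217 against 206, 142, 231 and 283, and its log2 change of 0.094 (-0.39 to 0.58) turned to -0.041 without context control replicate 1 and to -0.052 without fear conditioning replicate 4. Sema3d was 68.0 ± 40.1 and 68.1 ± 32.9. Sema3f, the ligand that acts through Nrp2 to limit spine number, was near the floor at 9.99 ± 3.32 and 12.3 ± 7.46, from 3 to 15 reads per sample. Sema3b was sparser still, with 0 reads in fear conditioning replicate 3, which allows up to 4.10 scaled reads (3 reads, counting error only), and at most 13 reads elsewhere.

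**Figure D3:**
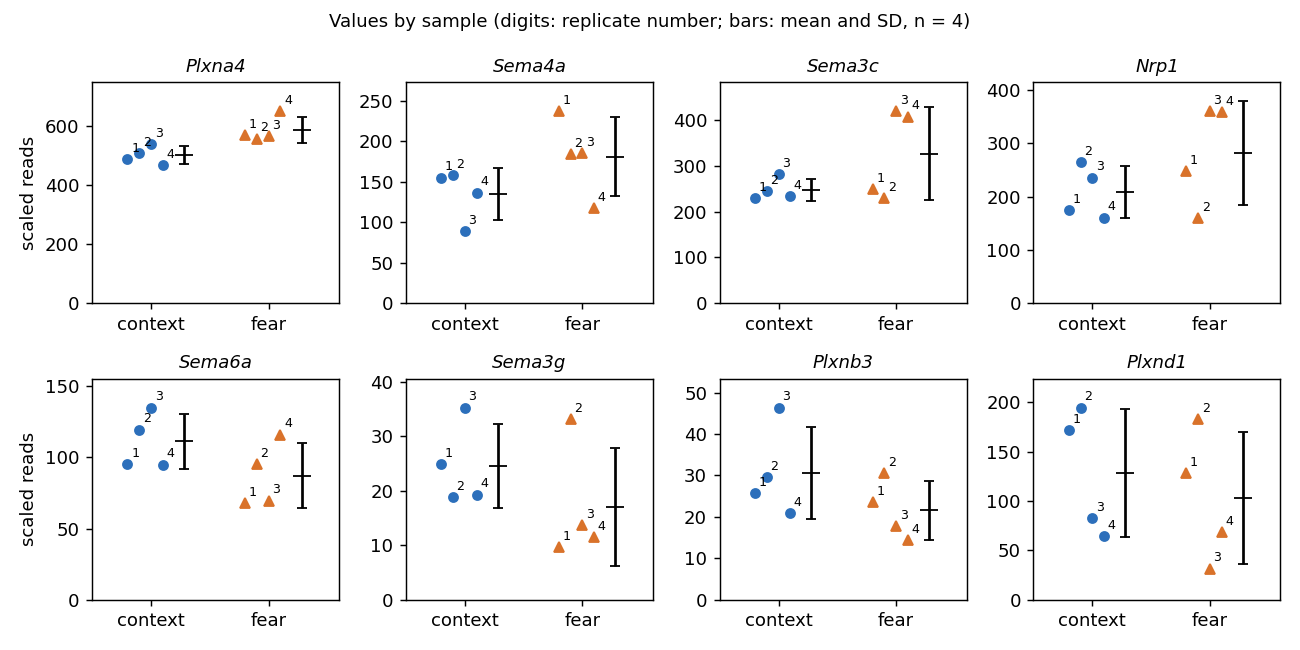
Scaled reads of 8 genes in each sample, with digits giving the replicate number and bars the mean and SD (n = 4 per group), on axes that start at 0. The groups are apart for Plxna4 alone, while Sema3c and Nrp1 are high in conditioned replicates 3 and 4 and Plxnd1 is low in replicates 3 and 4 of both groups.

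The semaphorins of classes 4 to 7, which are anchored in the membrane, lay higher in 10 of 13 members (median log2 change 0.15). All 6 class 4 genes had estimates above 0, from 0.011 for Sema4c to 0.42 for Sema4a, but 4 of 6 did after a correction for GC content (given below) and 3 of 6 when control replicate 3, or conditioned replicate 1 or 2, was left out. Sema4a, best known from immune cells and retina, read 155, 158, 88.7 and 137 in context controls and 238, 184, 186 and 118 after conditioning. Conditioned replicates 1, 2 and 3 lay above every control and replicate 4 among them. Its log2 change of 0.42 (-0.12 to 0.96) was alike between replicates 1 and 2 (0.41) and between replicates 3 and 4 (0.42). Leaving out single samples gave 0.23 without context control replicate 3, 0.28 without fear conditioning replicate 1 and 0.61 without fear conditioning replicate 4 (adjusted p = 0.828 in limma).

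The other class 4 genes differed between groups by less than the SD of either group. Sema4d, a plexin B1 ligand that promotes the assembly of inhibitory synapses, was 157 ± 30.0 and 176 ± 39.7 (SD, n = 4). Sema4f was 160 ± 35.4 and 172 ± 60.6, Sema4g 52.1 ± 18.4 and 65.2 ± 26.1, Sema4b 41.9 ± 17.4 and 45.4 ± 26.5, and Sema4c, a plexin B2 ligand, 51.7 ± 9.55 and 55.5 ± 23.1. Sema5a, a transmembrane ligand with thrombospondin repeats that restrains synapse formation, was 279 ± 74.0 and 398 ± 231, reading 691 in fear conditioning replicate 3 and 138 in fear conditioning replicate 2. Its log2 change of 0.33 was 0.76 without replicate 2 (adjusted p = 0.999 in limma) and -0.012 without replicate 3 of that group. Its relative Sema5b was 38.6 ± 25.8 and 40.9 ± 22.7.

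Class 6 was divided, with Sema6a and Sema6d lower and Sema6b and Sema6c higher. Sema6a, a ligand of plexins A2 and A4, read 95.5, 120, 135 and 94.95 in controls and 67.7, 95.5, 69.7 and 116 after conditioning. Conditioned replicates 1 and 3 were below every control and the groups overlapped otherwise, with a log2 change of -0.37 (-0.88 to 0.14). Without fear conditioning replicate 4 it was -0.52 (adjusted p = 0.828 in limma).

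Sema6d, a plexin A1 ligand, read 310, 293, 482 and 283 in controls and 254, 255, 340 and 397 after conditioning. Control replicate 3 was the highest, and the log2 change of -0.13 was 0.051 without it. Sema6b was 127 ± 41.7 and 157 ± 80.1, and Sema6c 18.3 ± 4.60 and 24.3 ± 8.84. The abundant Sema7a read 589, 520, 373 and 304 in controls and 558, 596, 277 and 307 after conditioning. Replicates 1 and 2 were high and 3 and 4 low in both groups, and the log2 change was -0.074 (-0.68 to 0.53), with the sign turning without context control replicate 1 or 2 or fear conditioning replicate 3 or 4.

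Of the receptors, all 4 A-type plexins lay higher, all 3 B-type plexins lower, Plxnc1 higher and Plxnd1 lower by their log2 changes, and none passed the threshold. For Plxnb2 the log2 change was -0.022 while the mean of the scaled reads was 138 in controls and 139 after conditioning. Without context control replicate 3, 2 of 4 A-type plexins lay higher, and with array weights, or without context control replicate 1 or 2 or conditioned replicate 3 or 4, 1 of 3 B-type plexins did. Plxna4, which with neuropilin 1 transmits the repulsive signal of Sema3a, was the only member whose groups did not overlap. It read 488, 509, 540 and 468 in context controls and 570, 558, 567 and 651 in conditioned samples, all of them above every control. Its 1 gene of 31 stands against 0.979% of all tested genes with every conditioned sample above every control. No member lay wholly below the controls, as 0.939% of all tested genes did. The log2 change was 0.23 (-0.056 to 0.51, adjusted p = 0.9998 in limma), a ratio of 1.17. It was also the only member that was higher in all 4 pairs of samples with the same number (5.57% of all tested genes were), and 0 members were lower in all 4 (5.43% of all tested genes).

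Plxna2, a receptor for class 3 and class 6 semaphorins, read 708, 756, 566 and 575 in controls and 780, 680, 814 and 764 after conditioning. Control replicates 3 and 4 were the lowest samples, and the log2 change of 0.23 (-0.082 to 0.54) was -0.0064 between replicates 1 and 2 and 0.47 between replicates 3 and 4. Plxna1 was 316 ± 108 and 351 ± 128 (SD, n = 4), and Plxna3, the partner of Nrp2 in Sema3f signalling, 68.2 ± 28.1 and 76.2 ± 25.7.

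The B-type plexins bind class 4 semaphorins. Plxnb3, which binds Sema5a, read 25.7, 29.5, 46.4 and 20.9 in controls and 23.5, 30.5, 17.8 and 14.4 after conditioning, from 13 to 46 reads. Control replicate 3 was the highest and conditioned replicates 3 and 4 the lowest. The log2 change of -0.48 (-1.26 to 0.29) was -0.27 without context control replicate 3. Plxnb1, the Sema4d receptor, was 313 ± 27.6 and 270 ± 90.5, and Plxnb2 138 ± 44.0 and 139 ± 52.8.

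Plxnc1, the receptor for Sema7a, read 367, 482, 404 and 515 in controls and 482, 322, 515 and 546 after conditioning, with a log2 change of 0.061 (-0.35 to 0.47). The sign turned to -0.024 without context control replicate 1 and, separately, without fear conditioning replicate 4. Plxnd1, known from vessels and from subsets of neurons, read 172, 195, 82.7 and 64.4 in controls and 128, 183, 31.4 and 68.1 after conditioning. Replicates 1 and 2 of both groups were above all samples of replicates 3 and 4. The log2 change of -0.45 (-1.53 to 0.63) was 0.018 without fear conditioning replicate 3.

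Both neuropilins, the ligand-binding co-receptors, lay higher. Nrp1, which binds Sema3a and vascular endothelial growth factor, read 174, 265, 236 and 161 in controls and 249, 159, 361 and 359 after conditioning. Conditioned replicates 3 and 4 were the highest samples and replicate 2 the lowest of all. The log2 change was 0.39 (-0.19 to 0.96), -0.11 between replicates 1 and 2 and 0.88 between replicates 3 and 4. It was 0.63 without fear conditioning replicate 2 (adjusted p = 0.999 in limma) and 0.24 without fear conditioning replicate 3 or 4.

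Nrp2, the co-receptor for Sema3f, read 122, 164, 162 and 75.6 in controls and 137, 145, 165 and 159 after conditioning. Control replicate 4 was the lowest sample, and the log2 change of 0.27 (-0.26 to 0.80) was 0.028 without it.

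The genes that carry the signal onward also had no member past the threshold. Of 48 co-receptors, cytoplasmic effectors and small GTPase genes, all tested, 27 lay higher and 21 lower, and 0 passed in limma, edgeR or DESeq2. At an unadjusted p under 0.05 limma had 2 of 48, both of them cytoplasmic effectors, beside the 2.7% of all tested genes. The median log2 change was 0.011 for co-receptors and other receptors (7 of 14 higher), 0.067 for cytoplasmic effectors (9 of 16 higher) and 0.056 for GTPases and their regulators (11 of 18 higher).

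The effector with the smallest p was Mical3, of the family of actin-oxidising enzymes that act below plexins, at 30.7, 18.8, 25.2 and 25.8 in controls and 53.9, 62.3, 61.5 and 62.4 after conditioning. Every conditioned sample lay above every control, as for 0.979% of all tested genes. The log2 change was 1.24 (0.67 to 1.81). The unadjusted p of Mical3 in limma, 4.2e-04, was the smallest of all tested genes, and its adjusted p was 0.9998. Dpysl3, of the collapsin response mediator family that relays Sema3a signals to microtubules, read 43.2, 72.5, 45.4 and 37.0 in controls and 99.4, 96.8, 94.3 and 57.6 after conditioning. Its log2 change was 0.81 (adjusted p = 0.9998 in limma), with conditioned replicate 4 below control replicate 2. Among the co-receptors the smallest p belonged to Flt1, a receptor of vascular endothelial growth factor (335 ± 51.0 and 279 ± 54.9, SD, n = 4), and to the adhesion molecule Chl1, a neuropilin partner (1418 ± 293 and 1735 ± 478). Among the GTPase genes it belonged to Rras, a substrate of plexin GTPase-activating domains (31.8 ± 4.96 and 24.9 ± 17.8, log2 change -0.71, -1.90 to 0.48, and -0.12 without fear conditioning replicate 4), and to the Rac exchange factor Tiam1 (334 ± 80.2 and 391 ± 68.0).

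Across samples, members of high and of low GC content differed between replicate numbers in both groups. The GC content of the longest transcript ran from 39.2% for Sema3d to 63.5% for Sema6b (median 56.2%, against 49.7% for tested genes), and 18 of 31 members were above 55%, as were 22.4% of tested genes. Of these 18, 15 were lower in replicates 3 and 4 than in replicates 1 and 2 in both groups and 0 were higher in both. Of the 13 members at or below 55%, 9 were higher in replicates 3 and 4 in both groups and 1 was lower in both. The difference took the same sign in both groups for 25 of 31 members (80.6%) and for 73.0% of all tested genes. The line at 55% and the division of the numbers were chosen after values were seen, and no label says what the numbers stand for.

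The 4 coding stretches below show the contrast for the members with the lowest and the highest coding GC content among those with a mean of at least 100 scaled reads. Each is 120 bases of the coding strand from GENCODE vM21, 5′ to 3′, taken where its GC content is nearest to that of the whole coding sequence, with G and C in capitals.
Sema3a, coding bases 307 to 426: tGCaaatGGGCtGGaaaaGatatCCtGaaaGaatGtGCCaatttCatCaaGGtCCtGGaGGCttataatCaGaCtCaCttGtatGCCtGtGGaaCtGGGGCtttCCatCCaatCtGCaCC
Sema3c, coding bases 283 to 402: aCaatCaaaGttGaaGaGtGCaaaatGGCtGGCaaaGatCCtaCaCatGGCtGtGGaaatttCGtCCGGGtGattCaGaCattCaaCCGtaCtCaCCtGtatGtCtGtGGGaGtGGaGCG
Plxnd1, coding bases 658 to 777: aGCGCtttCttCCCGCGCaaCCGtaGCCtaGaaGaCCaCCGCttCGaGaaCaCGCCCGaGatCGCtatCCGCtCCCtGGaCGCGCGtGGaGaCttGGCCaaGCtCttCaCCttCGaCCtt
Sema6b, coding bases 10 to 129: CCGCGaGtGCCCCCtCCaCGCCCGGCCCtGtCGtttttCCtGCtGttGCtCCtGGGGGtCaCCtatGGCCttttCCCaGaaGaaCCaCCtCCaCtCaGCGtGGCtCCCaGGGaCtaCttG
The stretches hold 55, 57, 73 and 76 G or C bases in that order, and the whole coding sequences 45.8%, 47.2%, 60.7% and 63.4%.

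Plxnd1 and Sema6b, with the GC-rich stretches, were lower in replicates 3 and 4. Plxnd1 differed by -1.31 in controls and -1.70 in conditioned samples, on the log2 scale. Sema6b read 126, 183, 81.7 and 119 in controls and 228, 219, 119 and 62.4 after conditioning, a difference of -0.62 and -1.36. Sema3a and Sema3c, with the AT-rich stretches, were higher there, by 0.69 and 0.61 for Sema3a and by 0.11 and 0.79 for Sema3c. Each of these differences compares samples within 1 group.

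The same pattern ran through the whole transcriptome. Over 9713 genes with a mean log2 value above 5, the correlation of a sample's deviation from the gene mean with GC content was 0.40, 0.57, -0.52 and -0.25 in the controls and 0.61, 0.67, -0.32 and -0.75 after conditioning. For the 31 members it was 0.41, 0.63, -0.40 and -0.39, then 0.61, 0.68, -0.46 and -0.74. These correlations run across genes that share a library, are given as descriptions, and do not separate base composition from other properties that go with it.

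**Figure D4:**
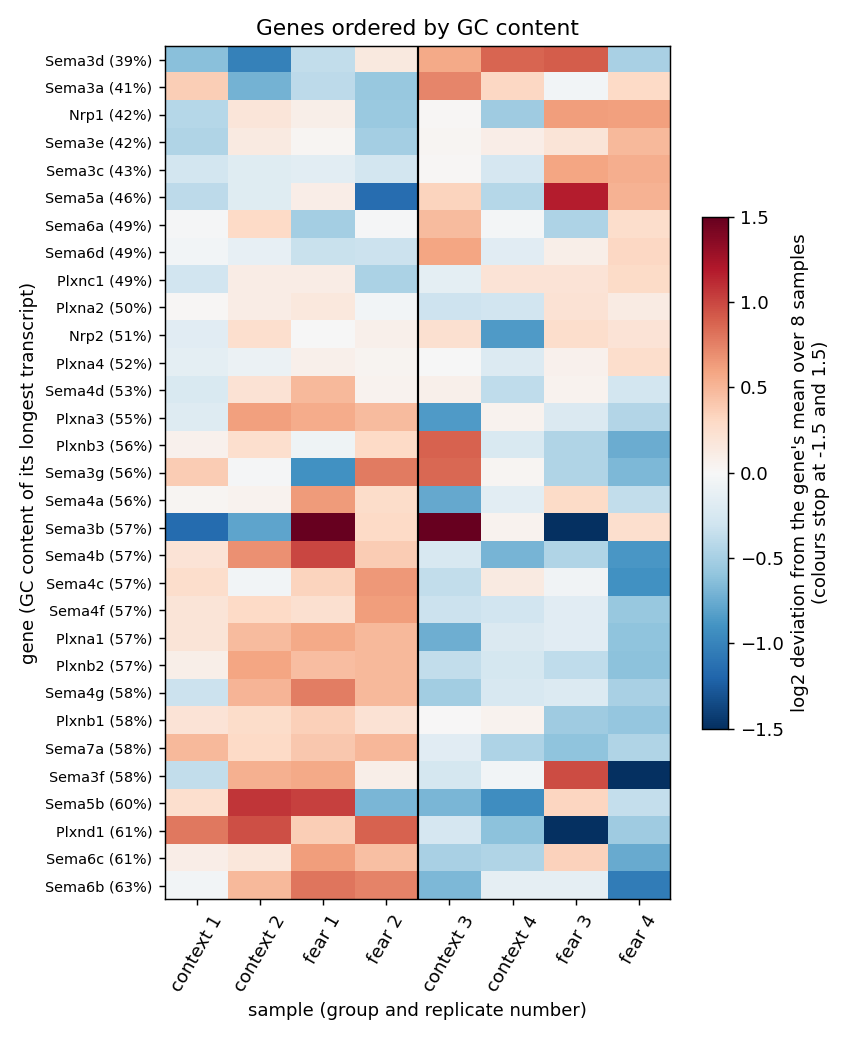
Deviation of each gene's log2 value from its mean over 8 samples, with genes ordered from low (top) to high GC content and samples arranged as replicates 1 and 2 (left of the line) and 3 and 4 (right). The GC-rich lower rows are mostly red on the left and blue on the right in both groups, apart from rows such as Plxnb3, Sema3g and Sema3b.

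A smooth GC curve was fitted to each sample of these same data and subtracted, a step built to shrink such differences. For the members above 55% GC the median difference between replicates 3 and 4 and replicates 1 and 2 went from -0.57 to 0.031 in controls and from -0.88 to -0.069 after conditioning. For the members at or below 55% it went from 0.11 to 0.060 in controls and from 0.43 to 0.22 after conditioning. Over all 31 members the median absolute difference fell from 0.36 to 0.26 in controls and from 0.74 to 0.20 after conditioning. Some members moved away from 0 in controls, such as Plxnb3 (0.17 to 0.61), Sema3g (0.26 to 0.71) and Nrp1 (-0.14 to -0.39). After this correction 0 of 31 members passed in limma. Those at an unadjusted p under 0.05 were Sema4a (log2 change 0.38, adjusted p = 0.918), Sema3c (0.33, adjusted p = 0.918) and Plxnb1 (-0.31, adjusted p = 0.925), 3 of 31 beside 5.35% of all tested genes.

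**Figure D5:**
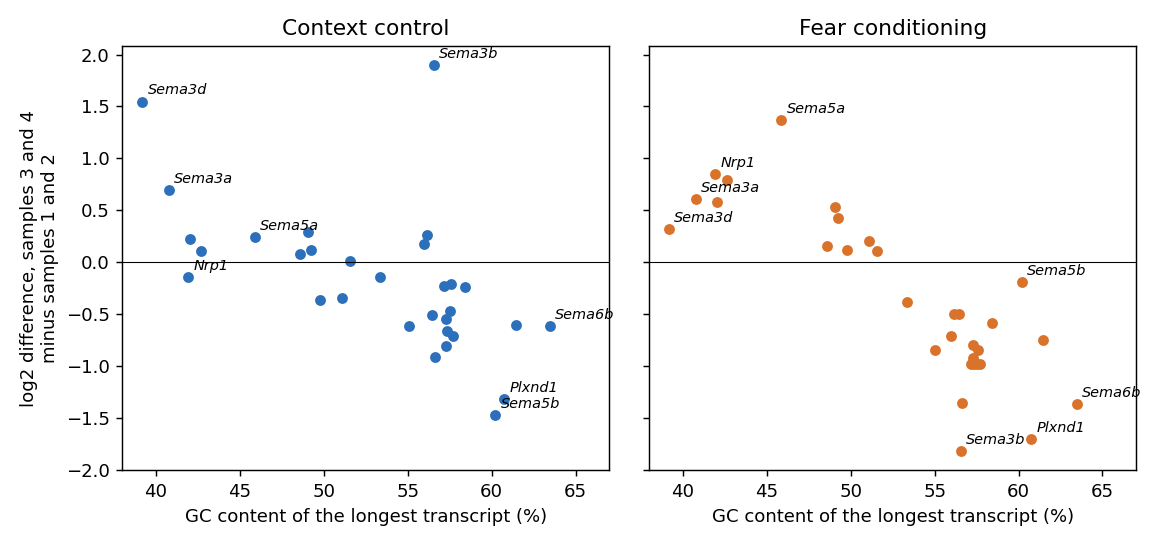
The log2 difference between samples 3 and 4 and samples 1 and 2 of each gene against the GC content of its longest transcript, for context controls (left) and conditioned samples (right). Plxnd1 and Sema6b lie low at the GC-rich end and Sema3a lies high at the AT-rich end in both panels, while the sparse Sema3b has opposite signs.

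Within the numbers, the change after conditioning took the same sign in replicates 1 and 2 and in replicates 3 and 4 for 14 of 31 members (45.2%), and for 49.3% of all tested genes. Those higher in both were Sema4a, Plxna4, Sema3c, Sema6c, Sema4g, Sema4d, Plxna3 and Plxna1, 8 in all. Those lower in both were Sema6a, Sema3a, Sema3g, Plxnb3, Plxnd1 and Sema6d, 6 in all. Among the lower ones, Sema6a stood at -0.41 and -0.33 and Sema3a at -0.31 and -0.39.

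Markers of vessels and glia had lower estimates after conditioning, as had some of the members known from these cells. All 10 endothelial markers were lower after conditioning (summed level 1119 to 1579 in controls and 878 to 1423 after conditioning, median log2 change -0.25), beside lower estimates for Sema3g and Plxnd1 and higher ones for Nrp1 (0.39) and Nrp2 (0.27), which vessels also express. All 8 oligodendrocyte markers were lower (2390 to 9455 and 2707 to 4353, median -0.49). Beside them were lower estimates for Sema6a and Plxnb3 and higher ones for Sema4d (0.16) and Sema5a (0.33). The control with 9455 was replicate 3, also the highest control for Sema6a and Plxnb3. Among controls, replicate 3 had the highest sum of the endothelial, oligodendrocyte precursor, astrocyte, microglial and meningeal fibroblast lists too. It also had the highest sum of the interneuron and upper-layer lists and the lowest of the deep-layer list (927). For the neuron list it was neither. The part of this 1 control in the marker changes was not tested. Replicate 3 was likewise the highest control for Sema3a, Sema3g and Sema6d, with estimates below 0. It was the highest control too for Plxna4, Sema3b, Sema3c and Sema5a, with estimates above 0. The 7 markers of oligodendrocyte precursors were lower too (912 to 1323 and 764 to 1049, median -0.31).

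The 8 markers of deep-layer neurons were all higher (927 to 1727 and 1264 to 2125, median 0.45). Beside them Nrp1 (0.39), Sema3c (0.35) and Sema3e (0.094) had estimates above 0, that of Sema3e turning sign with single samples left out. Sema3a (-0.35) and Plxnd1 (-0.45) had estimates below 0. The members named beside the marker lists were picked from 31, of which 22 had estimates above 0 and 9 below. The 5 upper-layer markers were divided, with 2 higher and 3 lower. Of the remaining lists, astrocyte (8 of 8), microglial (8 of 8) and meningeal fibroblast markers (7 of 7) had log2 changes below 0 as well. The mean of the microglial gene C1qa was nonetheless 93.6 in controls and 93.9 after conditioning. The interneuron list had 2 of 5 higher, and the neuron list 6 of 7 (median log2 change 0.11). No marker passed the threshold in limma. In limma the unadjusted p was under 0.05 for 2 of 10 endothelial and 2 of 8 astrocyte markers. It was so too for 2 of 7 oligodendrocyte precursor and 3 of 8 deep-layer markers, and for no marker of the other lists. Among all tested genes the share was 2.7%. No marker was at 0 in all samples, Flt1 and Kdr stand in both the endothelial and the co-receptor list, and the part of these cells in the members' values was not tested.

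The promoters of Sema3c and Sema3a show how far members of the same ligand class can differ upstream of the gene. RefSeq start sites on GRCm38.p6 were found for 26 of 31 members (37 windows), and the 250 bases before the start are printed 5′ to 3′ on the plus strand, with CG pairs in capitals.
Sema3c, chr5:17574566-17574815: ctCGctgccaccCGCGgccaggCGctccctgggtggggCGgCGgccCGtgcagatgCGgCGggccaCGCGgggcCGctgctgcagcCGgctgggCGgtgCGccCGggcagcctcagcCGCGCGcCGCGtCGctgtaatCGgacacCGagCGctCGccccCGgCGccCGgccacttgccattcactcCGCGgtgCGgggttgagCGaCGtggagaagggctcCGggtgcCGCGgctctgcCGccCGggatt
Sema3a, chr5:13396534-13396783: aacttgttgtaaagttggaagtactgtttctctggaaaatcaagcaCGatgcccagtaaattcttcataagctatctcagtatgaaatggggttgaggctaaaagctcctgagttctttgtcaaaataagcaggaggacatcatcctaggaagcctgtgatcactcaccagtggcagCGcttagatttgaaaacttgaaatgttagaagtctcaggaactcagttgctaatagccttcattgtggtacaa
The Sema3c stretch holds 39 CG pairs and is 78.4% G or C, and the Sema3a stretch holds 2 and is 40.8%, although both transcripts are AT-rich. With 50 bases after the start included, Sema3c (75.7%) and Sema3a (41.3%) were the highest and lowest in GC content of the 37 windows. Sema3d (49.7%) and Sema3e (50.7%), with estimates above 0, and Sema3g (58.7%), with an estimate below 0, lay between them. A link between promoter sequence and the changes was not tested.

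The sites below, of which those of AP-1 and Egr belong to factors that neuronal activity induces, were searched on both strands. The windows had 300 bases (250 before and 50 after the start). The Egr site GCGGGGGCG was found in 4 of 37 member windows, those of Plxnb2, Sema4g, Sema5a and Sema6b, and in 2.91% of all 32851 windows. The member windows, of which some belong to the same gene, had a median GC content of 63.7% and 15 CG pairs, against 52.7% and 7 for all windows, and the part of base composition in these shares was not tested. The AP-1 site TGANTCA was in 3 (Sema4c, Sema4d and Sema6b), against 7.81% of all windows. The E-box CACGTG was in 3 (Sema3e, Sema4b and Sema6d), against 7.15%. The full cAMP response element TGACGTCA was in 0 member windows and 1.79% of all. A match describes letters in the window only.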

How the data were processed

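Per the submitters' processing notes, the authors used TopHat and HTSeq (no versions) and a build named hg19, which is human, while the samples are labelled mouse. The deposited file is named FPKM, but in each column 100% of values above 0 were whole multiples of 1 step (within 0.01 of a read), so the deposited values are a scaled count signal. Dividing by the step recovered 1992452 to 3565356 reads per sample. In the deposited symbols 25 had become calendar dates. Groups and replicate numbers came from sample titles.

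log2(value + 1) of the 14704 genes with a mean of at least 1 was compared in limma 3.58.1 under R 4.3.3 (variance trend, two-sided, Benjamini-Hochberg over all tested genes, threshold 0.05), and fold changes on this scale understate those of low genes. edgeR 4.0.16 (quasi-likelihood) and DESeq2 1.42.0 were run on recovered reads. Further alternatives were a pseudocount of 0.1, no filter, quantile normalization, array weights, the replicate number as a block and each sample left out. A GC correction (lowess, span 0.3), alone or with the block, and replicates 1 and 2 against 3 and 4 as a term were added after seeing the data. Scripts were tested on simulated data. Within-group pairs of libraries differed by a chi-square per degree of freedom of 2.56 to 25.3, so none was a copy.

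Deviations from the group mean correlated between same-numbered samples in each of the 4 pairs (0.23 to 0.52), which met the limit of 0.1 set for treating the numbers as pairs. Differently numbered samples correlated as much or more (0.74 for control 3 with conditioned 4, 0.63 for control 2 with conditioned 1), so the correlations show numbers 1 and 2 apart from 3 and 4 and do not single out each number. No label gives a pairing.

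Lengths and GC content came from GENCODE vM21 (98.8% of tested genes matched, all 31 members). The members, gene lists and tests were chosen with earlier results of these data known. Genes were named by rule: the 8 members with the smallest p, those whose groups did not overlap, the 2 members with the highest level per kb in each of the 4 types, and the 2 partner genes with the smallest p in each of 3 lists. Values in every sample of Sema3a, Sema6b and Plxnd1, and details of Sema5a, were added after their values were seen.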

Additional observations from a re-analysis of the deposited data

Results flagged for a closer look

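In each group of 4, a sample was singled out where its gap to the next, as a share of the group's range, exceeded Dixon's 95% critical value, which chance does in about 1 of 20 groups, and 74 groups were looked at. Plxna4 read 651 in fear conditioning replicate 4, and 558 to 570 in the other conditioned samples. Sema3g read 33.2 in fear conditioning replicate 2, and 9.67 to 13.7 in the others. Sema6d read 482 in the replicate 3 control against 283 to 310 in the rest of that group. Among the partner genes, Dpysl3 read 57.6 in fear conditioning replicate 4 against 94.3 to 99.4, and Mical3 read 53.9 in fear conditioning replicate 1 against 61.5 to 62.4.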

How the results depend on the processing

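The count of members past the threshold was 0 under all 18 alternatives, as was that of partner genes, and the lowest adjusted p of any member under any of them was 0.825. The count over all tested genes was 0 to 1 with each sample left out in turn, the 1 being Uevld without fear conditioning replicate 4, and 0 otherwise. With the replicate number as a block, the counts of members, partner genes and all tested genes past the threshold were 0, 0 and 0, and it changed no call. Of 342 values of the 19 named genes under the alternatives, 333 kept their sign and 9 turned, each with a sample left out. With each sample left out in turn the log2 change ran from -0.024 to 0.23 for Plxnc1, from -0.052 to 0.28 for Sema3e, from -0.25 to 0.051 for Sema6d and from -0.25 to 0.11 for Sema7a, and the cause was not tested. Depth limited the sparse members, with at most 13 reads per sample for Sema3b and 15 for Sema3f. The number of higher members lay between 14 and 22 with a sample left out and between 20 and 23 otherwise.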
